A study of Mus musculus with 9 samples.

Results

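Chaperones and heat shock proteins were followed across 9 mouse RNA-seq libraries through the 81 genes, of 13787 with a value, whose symbols mark them as members of these families. Members were chosen by name and not by level: symbols that begin with Hspa, Hspb, Hspd, Hspe, Hsph or Hsp90, or with Dnaja, Dnajb, Dnajc, Cct or Hsf before a number, together with Tcp1, Calr, Canx and Bag3, and without Hspg2. Of the 81 genes, 77 had a mean of at least 0.5 FPKM (fragments scaled by transcript length and by the mapped fragments of the library) and were tested. The other 4, Hsf4, Hspb2, Cct6b and Dnajc6, were too low to test. Hsf2bp entered through its symbol alone, belongs to none of the groups below, and passed none of the 4 comparisons (log2 fold changes of 0.14 to 0.28, adjusted p = 0.22 to 0.70).

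Chaperones help proteins to fold and to refold after damage. HSP70 proteins bind and release unfolded stretches in an ATP cycle that J proteins (the Dnaj genes) stimulate, HSP90 proteins mature folded clients, the ring-shaped chaperonins enclose a folding chain, and small heat shock proteins hold unfolded chains without using ATP. Heat shock factors activate many cytosolic members through the heat shock element, whereas the endoplasmic reticulum (ER) has a set of its own that is induced through the ER stress response element when secretory proteins misfold. Fibroblasts and extraembryonic endoderm both secrete large amounts of matrix protein, which is folded in the ER.

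The ciXEN cells are extraembryonic endoderm-like cells that the study made from mouse embryonic fibroblasts (MEFs) of the CF-1 strain with chemicals and no transgene. For lines 1-1, 2-1 and 3-3 there was 1 library at passage 30 and 1 at passage 5, beside 3 libraries from MEFs at passage 3. The ciXEN lines came from hand-picked clones, and were picked onto Matrigel. Their medium was KnockOut DMEM with serum, serum replacement and the agents bFGF, VPA, CHIR99021, RepSox, Parnate, forskolin, AM580 and EPZ004777, with less bFGF, CHIR99021 and forskolin after the clones had grown out. The MEFs grew in DMEM with serum and without these agents, so medium and cell type cannot be told apart, and the sources used here do not say whether the 3 MEF libraries came from separate embryos or cultures. The comparisons ask how the transcriptome of ciXEN cells differs from that of the MEFs, and how it differs between late and early passage.

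The summed FPKM of a library lay between 341163 and 342201 at passage 30, between 331034 and 341579 at passage 5 and between 315395 and 326915 in MEFs, and no read counts were used, so the depth is unknown. All 6 extraembryonic endoderm markers were higher and all 5 fibroblast markers lower in ciXEN cells. Summed FPKM of the macrophage markers was 1.48 to 2.48 at passage 30, with 2.02 to 3.43 at passage 5, against 74.0 to 137.5 in MEFs, and that of the muscle markers 0.82 to 1.25, 0.28 to 1.19 and 48.6 to 74.0 in the same order. All 4 listed macrophage and all 4 listed muscle markers were lower in ciXEN cells without overlap, with Adgre1, the defining macrophage gene, at 0 in all ciXEN libraries. MEF libraries 1 and 3 held more of some endoderm transcripts than MEF library 2, such as Gata4, with at least 153.8 FPKM in any ciXEN library against 1.27, 0.163 and 1.35 FPKM in MEF libraries 1, 2 and 3. In such bulk libraries, fewer cells of a type and less RNA per cell cannot be told apart. The part of these markers in the results below was not tested.

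Promoters are given before the levels, because the heat shock element and the ER stress response element fell on members of different groups. The calls were known when the promoters were read. RefSeq windows of GRCm38.p6, from 250 bases before to 50 bases after each transcription start, matched 65 of the 81 members. The heat shock element, searched on both strands as TTC-NN-GAA-NN-TTC or GAA-NN-TTC-NN-GAA, was found in 4 of the 65 members, which is 6.2%, against 0.662% of all 27025 genes with a window. The ER stress response element, searched as CCAAT, 9 bases of any kind and CCACG on both strands, was found in 5 of the 65, which is 7.7%, against 0.137% of all genes. Genes of these families are known to be induced through these elements, so a share above that of all genes is no further result. A match is a description of these letters and not of a factor's binding.

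The heat shock element lay in the windows of Hspd1, Hspe1, Hsph1 and Dnajb6. The sites are given because all 4 genes were higher in ciXEN cells, as were 40 of the 77 tested members and 42.4% of all tested genes. The windows of Hspa1a, Hspa1b and Hspb1 held no match, and Hsp90aa1, Hsp90ab1 and Hspa8 had no window. Whether the element bears on the levels was not tested. Capitals mark the fixed letters of the element, read along the strand of the gene.
Hspe1 site: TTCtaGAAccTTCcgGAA
Hspd1 site: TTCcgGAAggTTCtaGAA
Hsph1 site: TTCtgGAAagTTC
Dnajb6 site: GAAtcTTCcgGAA

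Hspe1 and Hspd1 read the same 18 bases from opposite strands (chr1:55088059-55088076), and their transcription starts lie 216 bases apart. In GENCODE M21 these 18 bases lie in a noncoding exon of transcript Hspd1-202. The Hsph1 site (chr5:149636288-149636300, minus strand) lies in an exon of 4 Hsph1 transcripts, after the start in both of its windows. The Dnajb6 site (chr5:29735852-29735864, plus strand) lies in an exon of Dnajb6-201 and in the coding sequence of the overlapping gene Gm5129. The shared promoter is shown in the direction of Hspe1 (chr1:55087898-55088197, plus strand), with the whole element in capitals.
Hspe1 promoter: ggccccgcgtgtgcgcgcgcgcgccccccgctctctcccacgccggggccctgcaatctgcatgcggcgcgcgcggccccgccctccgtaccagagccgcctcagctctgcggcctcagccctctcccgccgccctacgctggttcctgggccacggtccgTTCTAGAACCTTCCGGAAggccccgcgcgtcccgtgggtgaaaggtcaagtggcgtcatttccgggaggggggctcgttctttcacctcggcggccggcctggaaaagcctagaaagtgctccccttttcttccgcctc

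The ER stress response element lay in the windows of Hspa5, Hsp90b1, Calr, Canx and Dnajc3. The first 4 of these genes were lower in ciXEN cells, as were 23 of the 77 tested members and 27.6% of all tested genes. Dnajc3 did not pass, and Hsp90b1 alone had 2 sites in its window. Whether this element bears on the levels was not tested either. Where the letters run from CGTGG to ATTGG, the element lies on the strand opposite to the gene.
Hspa5 site: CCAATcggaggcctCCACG
Hsp90b1 distal site: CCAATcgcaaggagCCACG
Hsp90b1 proximal site: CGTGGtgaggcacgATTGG
Calr site: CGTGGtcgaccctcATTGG
Canx site: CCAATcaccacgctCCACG
Dnajc3 site: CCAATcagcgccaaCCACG

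The Hspa5 site (chr2:34772025-34772043) lies 65 to 47 bases before the RefSeq start and in an exon of Hspa5-201, a transcript that starts further upstream. The Hsp90b1 sites (chr10:86705638-86705656 and chr10:86705533-86705551) lie outside any transcript of GENCODE M21, as do those of Calr (chr8:84847075-84847093), Canx (chr11:50325800-50325818) and Dnajc3 (chr14:118937827-118937845). The windows of Hspa5 (chr2:34771840-34772139, plus strand) and Hsp90b1 (chr10:86705395-86705694, minus strand), which encode the ER members of the HSP70 and HSP90 families, are shown with the element in capitals.
Hspa5 promoter: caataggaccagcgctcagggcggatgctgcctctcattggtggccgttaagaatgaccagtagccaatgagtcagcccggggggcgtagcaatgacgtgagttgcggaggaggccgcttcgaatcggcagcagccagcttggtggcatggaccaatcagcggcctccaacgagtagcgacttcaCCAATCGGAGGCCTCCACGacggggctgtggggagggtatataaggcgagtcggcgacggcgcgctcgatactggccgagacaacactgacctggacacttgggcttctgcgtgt
Hsp90b1 promoter: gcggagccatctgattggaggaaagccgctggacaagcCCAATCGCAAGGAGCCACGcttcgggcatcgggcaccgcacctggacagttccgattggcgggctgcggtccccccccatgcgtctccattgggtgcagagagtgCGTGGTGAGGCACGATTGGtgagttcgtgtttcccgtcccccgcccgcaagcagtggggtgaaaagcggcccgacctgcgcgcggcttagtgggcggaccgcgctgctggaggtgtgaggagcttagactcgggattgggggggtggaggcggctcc

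The 81 genes together held 2.24% to 2.29% of the summed FPKM at passage 30, 2.09% to 2.24% at passage 5 and 2.00% to 2.18% in MEFs. Every passage 30 library lay above every MEF library, while passage 5 overlapped the MEFs. Within these shares the groups of chaperones moved apart. Of the 77 tested members, 40 were higher and 23 lower in ciXEN cells than in MEFs and 14 did not pass (limma on log2(FPKM + 1), all 9 libraries in 1 fit, Benjamini-Hochberg adjusted p under 0.05 over 12443 genes, two-sided). Of all tested genes 70.1% passed, 42.4% higher and 27.6% lower, so that a call by itself sets no member apart from the other genes. The counts by group below are to be read beside these shares. Of the 77 tested members, 33 lay higher and 19 lower in every ciXEN library than in every MEF library (36.8% and 24.4% of all tested genes). The median log2 fold change was 0.25 over the tested members and 0.20 over all tested genes. Hspa12b, Dnajb5 and Hspb7 reached the mean of 0.5 FPKM through the MEFs alone, and Dnajc22 through the ciXEN cells alone. Their calls stand in these counts as descriptions. Fold changes on this scale understate the change of low genes, and each p measures the spread between these libraries only.

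**Figure D1:**
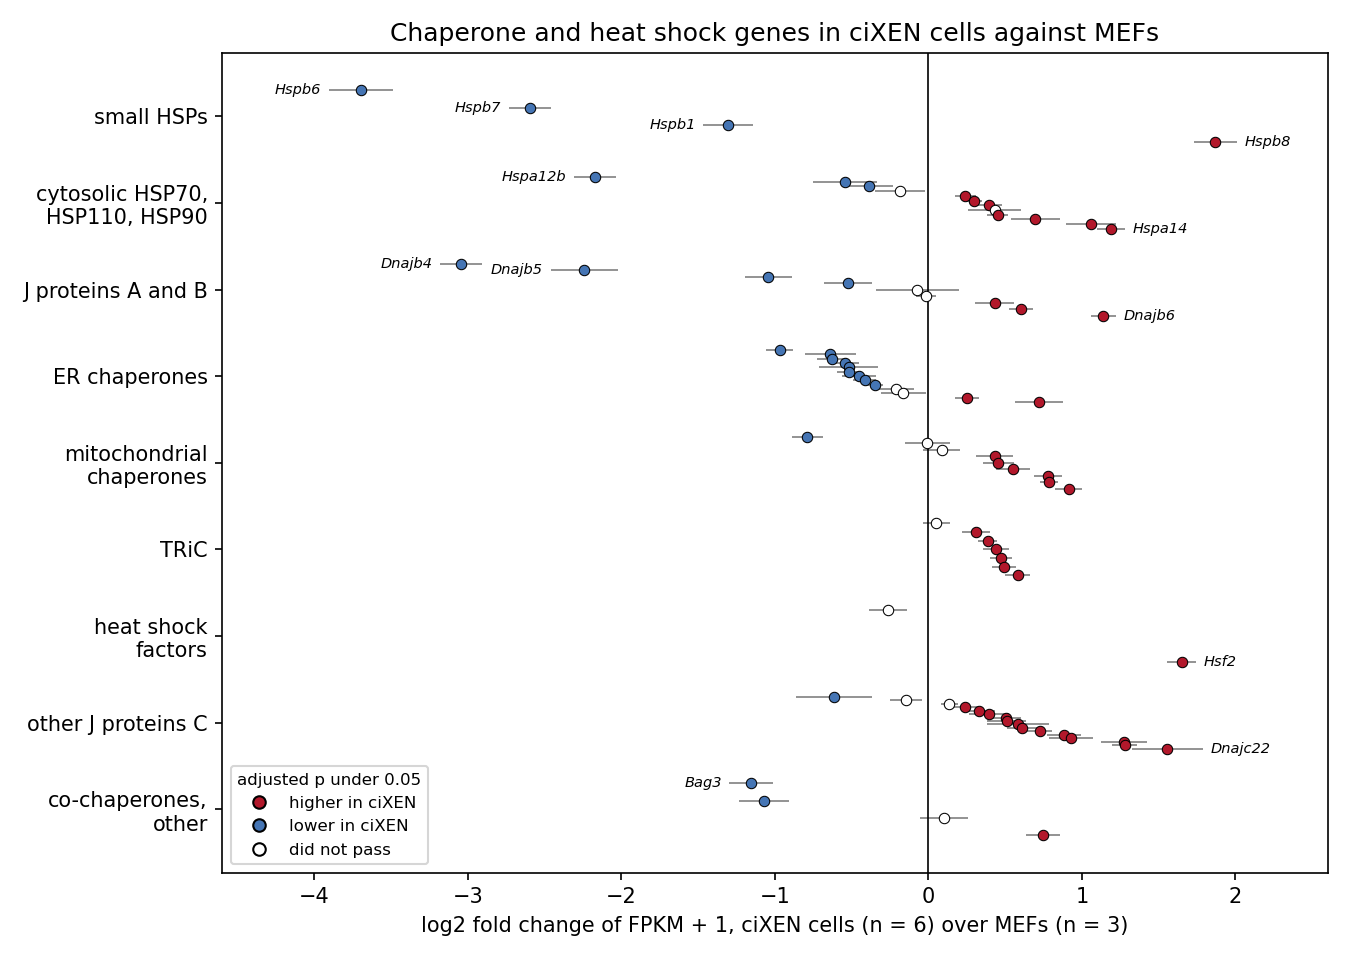
Log2 fold change of FPKM + 1 in ciXEN cells (6 libraries) over MEFs (3 libraries) for the 77 tested members, with standard errors as bars, by group of chaperones from top to bottom and coloured by the limma call. ER chaperones lie mostly left of 0 (9 of 13 lower) and TRiC subunits right of it (6 of 7 higher), while small heat shock proteins spread from -3.70 to 1.87.

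ER chaperones were the group with most members lower in ciXEN cells: 9 of 13 fell, 2 rose and 2 did not pass, with a median log2 fold change of -0.45 (27.6% of all tested genes fell and 42.4% rose). Summed over the 13 genes, the ER group reached 1609, 1690 and 1592 FPKM in the passage 30 libraries of lines 1-1, 2-1 and 3-3 and 1553, 1432 and 1529 FPKM at passage 5, against 2309, 2001 and 2012 FPKM in the 3 MEF libraries. The ciXEN mean was 0.744 times that of MEFs, and no ciXEN library reached an MEF library. Hspa5, the ER HSP70 known as BiP (ENSMUSG00000026864, chr2:34771970-34777547), had 120.8, 129.7 and 106.3 FPKM at passage 30, with 118.6, 101.8 and 103.4 at passage 5, against 198.9, 167.0 and 161.9 in MEFs. The ranges did not overlap, and the log2 fold change was -0.63 (SE 0.10, adjusted p = 0.00026).

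Hsp90b1, the ER HSP90 known as GRP94 (ENSMUSG00000020048, chr10:86690209-86705509), had 563.9, 589.6 and 506.4 FPKM at passage 30, with 482.7, 448.6 and 526.3 at passage 5, against 810.5, 705.9 and 708.6 in MEFs. It fell by 0.52 on the log2 scale (SE 0.08, adjusted p = 0.00026). Calr and Canx encode calreticulin and calnexin, the lectin chaperones that bind glycoproteins with trimmed sugars. Calr averaged 520.3 ± 24.0 FPKM at passage 30, with 499.5 ± 12.6 at passage 5, against 683.3 ± 80.1 in MEFs (SD, n = 3 each), and fell by 0.42 (adjusted p = 0.00072). Canx averaged 208.7 ± 0.917, 186.5 ± 6.70 and 251.2 ± 4.10 FPKM in the same order and fell by 0.35 (adjusted p = 0.00019). For both genes every ciXEN library lay below every MEF library.

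The ER J proteins split. Dnajb9, which binds BiP and the stress sensor IRE1, had the largest fall of the group, with 8.29, 8.33 and 8.91 FPKM at passage 30, with 11.7, 10.5 and 11.4 at passage 5, against 21.8, 19.1 and 19.6 in MEFs (log2 fold change -0.97, SE 0.09, adjusted p = 7.5e-06). Dnajc10, a J protein with thioredoxin domains that reduces disulphides, fell by 0.45 (adjusted p = 0.0049), and Dnajc25 by 0.64 (adjusted p = 0.007, and 0.28 with MEF libraries 1 and 3 left out). Hspa13, an HSP70 of microsomes, fell by 0.54 (adjusted p = 5e-04), and Dnajc1, a membrane J protein, by 0.52 (adjusted p = 0.035). The call of Dnajc1 was lost without any 1 of the MEF libraries and without line 2-1 or line 3-3 at passage 5, and it passed at neither passage alone (adjusted p = 0.075 at passage 30 and 0.054 at passage 5). Against these, Dnajb12, a tail-anchored J protein of ER-associated degradation, averaged 33.9 ± 1.98 FPKM at passage 30, with 26.9 ± 7.83 at passage 5, against 17.8 ± 2.20 in MEFs and rose by 0.72 (adjusted p = 0.0026, and 0.056 with MEF libraries 1 and 3 left out). Dnajb11, a soluble BiP partner, rose by 0.25 (adjusted p = 0.018), a call lost without MEF library 2 or 3 (adjusted p = 0.056 and 0.068) and with library sums made equal (0.072).

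Other ER folding and unfolded protein response genes, which are no members, went the same way more often than the other: of 20 tested, 9 fell, 2 rose and 9 did not pass, with a median of -0.25 (27.6% of all tested genes fell and 42.4% rose). The largest falls were those of Fkbp10, a prolyl isomerase of collagen folding (0.153 to 0.390 FPKM at passage 30, with 0.0502 to 0.711 at passage 5, against 98.0 to 118.5 in MEFs), of Ddit3, the stress factor CHOP (log2 fold change -2.79, adjusted p = 6.2e-06), and of Herpud1, a factor of ER-associated degradation (-2.10, adjusted p = 0.00015). Fkbp10 passed the filter on low values through the MEFs alone, so its call is a description. Sdf2l1, an ER co-chaperone, rose by 1.13 (adjusted p = 0.00087), and Xbp1, the transcription factor that IRE1 activates by splicing, by 0.55 (adjusted p = 0.0035). 

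**Figure D2:**
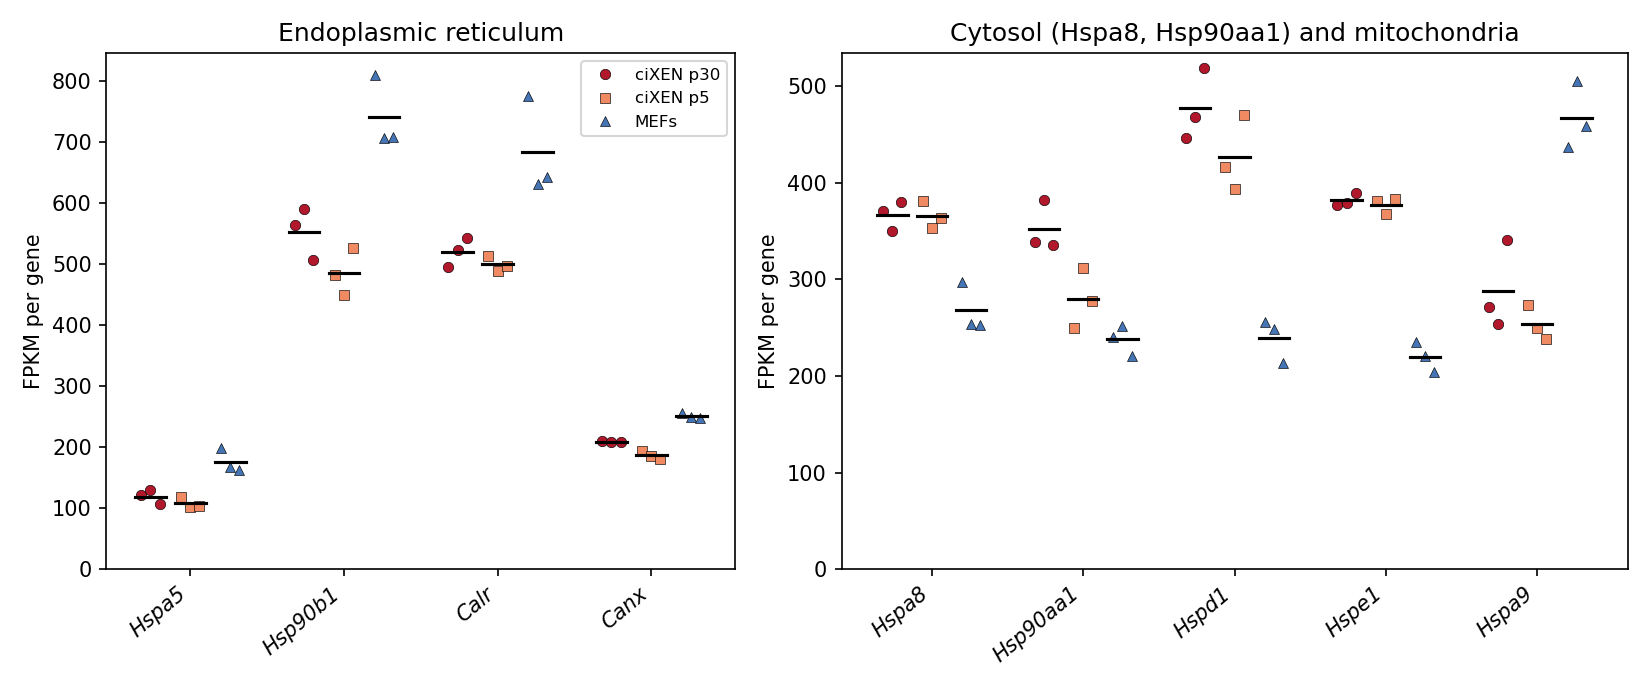
FPKM per gene in each library (points) with the group mean (bar), for ER chaperones (left panel) and for cytosolic and mitochondrial chaperones (right panel), with ciXEN p30, ciXEN p5 and MEFs from left to right for each gene. The 4 ER genes and Hspa9 lie lower in all 6 ciXEN libraries, and Hspa8, Hspd1 and Hspe1 lie higher in all 6, while the passage 5 libraries of Hsp90aa1 overlap the MEFs.

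Cytosolic HSP70, HSP110 and HSP90 genes were more often higher than lower in ciXEN cells: 7 of 12 rose, 3 fell and 2 did not pass, with a median of 0.35. Of all tested genes 42.4% rose and 27.6% fell, with a median of 0.20. At passage 5 alone 5 of the 12 were higher, near the share of all tested genes (40.7%). Their sum was 2410 ± 83.6 FPKM at passage 30, with 2244.5 ± 17.7 at passage 5, against 1794 ± 67.7 in MEFs (SD, n = 3 each). Hsp90ab1, the constitutive cytosolic HSP90, was the most abundant member, with 1509, 1406 and 1343 FPKM at passage 30, with 1332, 1351 and 1295 at passage 5, against 1130, 1126 and 1085 in MEFs. It rose by 0.30 (SE 0.05, adjusted p = 0.00064), but by 0.05 after quantile normalisation (adjusted p = 0.54). Hsp90aa1, the inducible HSP90, rose by 0.40 (adjusted p = 0.0021) and at passage 5 alone did not pass (log2 fold change 0.23, adjusted p = 0.06).

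Hspa8, the constitutive HSP70 of the cytosol (ENSMUSG00000015656, chr9:40800984-40810087), had 370.4, 350.1 and 379.9 FPKM at passage 30, with 381.0, 353.1 and 363.3 at passage 5, against 297.2, 254.3 and 253.2 in MEFs (log2 fold change 0.45, SE 0.07, adjusted p = 0.00025). Hsph1, an HSP110 that recharges HSP70 with ATP, had 57.6, 79.8 and 56.7 FPKM at passage 30, with 75.3, 59.5 and 98.5 at passage 5, against 35.6, 30.6 and 32.8 in MEFs (1.06, SE 0.16, adjusted p = 0.00029). Hspa14, a ribosome-associated HSP70, rose most in the group, with 68.0 to 84.7 FPKM over the ciXEN libraries against 28.5 to 36.6 in MEFs (1.19, SE 0.09, adjusted p = 2.6e-06). The levels of these 3 genes did not overlap between ciXEN cells and MEFs. Hspa4, another HSP110, rose by 0.24 (adjusted p = 0.011, and 0.062 with equal library sums), and Hspa2, an HSP70 best known from the testis, by 0.70 (adjusted p = 0.0034, and 0.081 with MEF libraries 1 and 3 left out).

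Hspa12b, a distant HSP70 of endothelium, fell: it had 0.073, 0 and 0.0262 FPKM at passage 30, was listed at 0 in all 3 libraries at passage 5, and had 3.21, 2.98 and 4.77 FPKM in MEFs (log2 fold change -2.17, SE 0.14, adjusted p = 7.7e-07). Like Hspb7 and Dnajb5 below, it passed the filter on low values through the MEFs alone, so its call is a description. The endothelial markers Cdh5 and Tek went the other way and were higher in ciXEN cells, at 5.61 to 10.04 and 6.05 to 8.37 FPKM at passage 30, with 1.93 to 4.72 and 2.55 to 3.34 at passage 5, against 0.0225 to 0.0685 and 0.589 to 0.909 in MEFs, while Emcn was listed at 0 in all ciXEN libraries and at 0.384 to 0.592 in MEFs. Hspa12a was near the filter and fell by 0.54 (adjusted p = 0.041), with overlapping ranges, and did not pass without MEF library 2 (-0.33, adjusted p = 0.17).

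Hspa1a and Hspa1b, the stress-inducible HSP70 genes, were low in all libraries and were read with caution because their transcripts are near-identical and reads may be shared between them. Summed over both, they had 6.10, 6.71 and 4.58 FPKM at passage 30, with 14.6, 12.8 and 11.4 at passage 5, against 14.4, 9.19 and 10.7 in MEFs. The passage 30 libraries lay below all others. Against MEFs, the sum over all 6 ciXEN libraries did not pass (log2 fold change -0.34, adjusted p = 0.083), that at passage 30 fell by 0.86 (adjusted p = 0.0026), and that at passage 5 was 0.18 (adjusted p = 0.42). Hspa1b alone passed over all ciXEN cells (-0.39, adjusted p = 0.047), but not without MEF library 1 (-0.22, adjusted p = 0.23), without MEF library 3 (adjusted p = 0.098), on leaving out any ciXEN library but line 2-1 at passage 30, or with the passages of each line averaged (adjusted p = 0.083).

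A list of 10 immediate early genes, which respond to the handling of cells, was read beside these. Of the 10, 8 were lower in ciXEN cells and 2 did not pass, where 27.6% of all tested genes were lower. The summed FPKM of the 10 was 64.4, 65.9 and 56.6 at passage 30, with 91.2, 135.1 and 63.2 at passage 5, against 365.7, 213.5 and 143.5 in MEFs. MEF library 1, the highest of these, was also the highest MEF library for Hspa1a, Hspa1b, Hspa5 and Hsp90b1. This was not particular to them: it was also highest for Calr, Hspd1 and Hspb8. Its summed FPKM was highest too, over all members (7101.6, against 6719.8 and 6432.0) and over all transcripts. Hspa9, Hspb1 and Hsp90aa1 were highest in MEF library 2. The part of the immediate early genes in the results was not tested.

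Small heat shock proteins held the largest changes among the members, in both directions. Of 4 tested, 3 fell and 1 rose, with a median of -1.95 (27.6% of all tested genes fell and 42.4% rose). Hspb7, 1 of the 3 falls, passed the filter through the MEFs alone, so its call is a description. Hspb6, known for its part in the relaxation of smooth muscle, had 1.17, 1.11 and 1.24 FPKM at passage 30, with 1.24, 1.17 and 1.57 at passage 5, against 43.4, 25.1 and 20.4 in MEFs (log2 fold change -3.70, SE 0.21, adjusted p = 3.3e-07). Hspb7, known from heart muscle, was listed at 0 in 5 of 6 ciXEN libraries and at 0.0326 in the other, with 6.65, 4.43 and 4.42 FPKM in MEFs (adjusted p = 2.2e-07). Hspb1, the widely expressed HSP25 of the mouse, had 9.81, 11.3 and 7.06 FPKM at passage 30, with 11.8, 7.99 and 11.9 at passage 5, against 25.3, 27.6 and 24.2 in MEFs (-1.30, SE 0.16, adjusted p = 7.3e-05).

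Hspb8 went against these. It had 57.8, 57.9 and 84.9 FPKM at passage 30, with 85.1, 70.3 and 82.4 at passage 5, against 22.0, 18.3 and 17.1 in MEFs, without overlap (log2 fold change 1.87, SE 0.14, adjusted p = 2.3e-06). The summed FPKM of the small heat shock proteins overlapped between the groups, at 68.8 to 93.2 at passage 30, with 79.6 to 98.1 at passage 5, against 67.0 to 98.6 in MEFs. Bag3, the co-chaperone that joins HSPB8 to HSP70 in the clearance of damaged filaments, moved opposite to its partner, with 18.9, 29.8 and 23.2 FPKM at passage 30, with 31.6, 24.9 and 33.8 at passage 5, against 63.1, 60.9 and 57.0 in MEFs (-1.15, SE 0.14, adjusted p = 6.9e-05). Hspb2, not tested, was listed at 0 at passage 30, at 0 to 0.262 FPKM at passage 5 and at 0.630 to 1.25 in MEFs. Cryab, a small heat shock protein of lens and muscle and no member by its symbol, fell by 3.07 (adjusted p = 6.1e-07). Several of these genes are known from muscle, and the muscle markers Cnn1, Myh11 and Des fell too (log2 fold changes of -4.81, -3.57 and -1.96), but their part in the result was not tested.

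**Figure D3:**
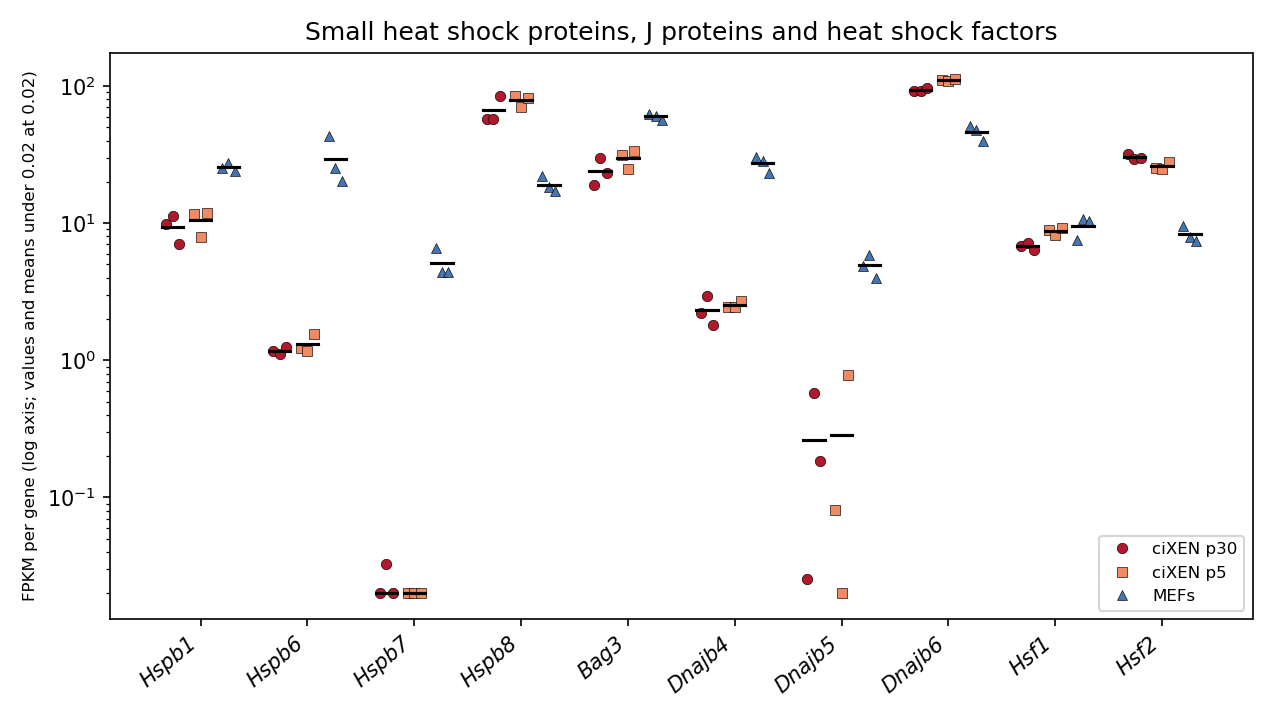
FPKM per gene on a log axis in each library (points) with the group mean (bar), with ciXEN p30, ciXEN p5 and MEFs from left to right for each gene and values or means under 0.02 drawn at 0.02. Hspb6, Hspb7, Dnajb4 and Dnajb5 lie far below the MEFs in all ciXEN libraries, and Hspb8, Dnajb6 and Hsf2 above them.

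J proteins of classes A and B split in both directions: 3 of 9 rose, 4 fell and 2 did not pass, with a median of -0.07 (42.4% of all tested genes rose and 27.6% fell). Dnajb4, a partner of HSP70 known from muscle, had 2.22, 2.94 and 1.82 FPKM at passage 30, with 2.43, 2.44 and 2.69 at passage 5, against 30.4, 28.2 and 23.2 in MEFs (log2 fold change -3.05, SE 0.14, adjusted p = 7.7e-08). Dnajb5 had 0.0255, 0.576 and 0.184 FPKM at passage 30, with 0.0814, 0 and 0.779 at passage 5, against 4.89, 5.86 and 4.02 in MEFs (-2.24, SE 0.22, adjusted p = 1.4e-05). It passed the filter through the MEFs alone, so this call is a description. Dnaja4 fell by 1.04 (adjusted p = 0.00022). These 3 genes did not overlap between ciXEN cells and MEFs.

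Dnajb6, a J protein that holds back aggregation of polyglutamine proteins and whose window held a heat shock element, had 92.8, 92.8 and 97.0 FPKM at passage 30, with 111.3, 109.7 and 113.2 at passage 5, against 51.2, 47.5 and 39.9 in MEFs (1.14, SE 0.08, adjusted p = 1.5e-06). Dnaja1, the most abundant of the class, averaged 196.8 ± 11.2 FPKM at passage 30, with 204.9 ± 21.9 at passage 5, against 131.8 ± 8.63 in MEFs and rose by 0.60 (adjusted p = 0.00012). Dnajb1, the HSP40 that is induced by heat, rose by 0.43 (adjusted p = 0.012) with overlapping ranges and did not pass without MEF library 2 or 3 (adjusted p = 0.053 and 0.06). Dnaja2, known like Dnaja1 as a general HSP70 partner, lay at 107.5 ± 2.86, 94.4 ± 3.02 and 102.0 ± 7.39 FPKM (log2 fold change -0.02, adjusted p = 0.84).

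The heat shock factors differed from each other. Hsf2, which works in development and forms mixed trimers with HSF1, had 31.7, 29.4 and 30.0 FPKM at passage 30, with 25.3, 24.8 and 28.2 at passage 5, against 9.52, 7.97 and 7.46 in MEFs (log2 fold change 1.65, SE 0.09, adjusted p = 3.5e-07). Hsf1, the main factor of the heat shock response, had 6.81, 7.14 and 6.36 FPKM at passage 30, with 8.88, 8.13 and 9.18 at passage 5, against 7.51, 10.8 and 10.4 in MEFs, and did not pass (-0.27, adjusted p = 0.081). It passed without MEF library 1 (-0.41, adjusted p = 0.012). It also passed with library sums or library medians made equal (-0.34 and -0.32, adjusted p = 0.044 in both). After quantile normalisation it passed narrowly (-0.33, adjusted p just under 0.05). Hsf1 passed at passage 30 alone as well (-0.43, adjusted p = 0.025). That call at passage 30 was lost without MEF library 2 (adjusted p = 0.093), without MEF library 3 (0.088), without line 3-3 at passage 30 (0.068) and with only those groups in the fit (0.050). Hsf4, of lens, was listed at 0 to 0.431 FPKM at passage 30, with 0 to 0.0567 at passage 5, against 0.463 to 0.544 in MEFs and was not tested.

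Mitochondrial chaperones were mostly higher in ciXEN cells, with their main HSP70 as the exception: 6 of 9 rose, 1 fell and 2 did not pass, with a median of 0.46 (42.4% of all tested genes rose and 27.6% fell). Hspd1 and Hspe1 encode HSP60 and HSP10, the barrel and the lid of the mitochondrial chaperonin. Hspd1 (ENSMUSG00000025980, chr1:55077835-55088243) had 446.1, 468.1 and 518.7 FPKM at passage 30, with 416.2, 393.4 and 470.6 at passage 5, against 255.8, 248.7 and 213.7 in MEFs (log2 fold change 0.91, SE 0.09, adjusted p = 1e-05). Hspe1 (ENSMUSG00000073676, chr1:55088132-55091307) had 377.4, 379.1 and 389.5 FPKM at passage 30, with 381.6, 367.9 and 383.0 at passage 5, against 235.6, 220.8 and 203.9 in MEFs (0.79, SE 0.06, adjusted p = 2.1e-06). Their ratio, Hspe1 over Hspd1, overlapped between the groups, at 0.751 to 0.935 in ciXEN cells and 0.888 to 0.954 in MEFs. GENCODE M21 names 5 pseudogenes after Hspd1 and 6 after Hspe1, and the sources used here do not say how reads that fit several copies were counted.

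Hspa9, the mitochondrial HSP70 known as mortalin, had 271.0, 253.5 and 340.8 FPKM at passage 30, with 273.0, 250.1 and 238.7 at passage 5, against 436.6, 505.4 and 459.2 in MEFs (log2 fold change -0.79, SE 0.10, adjusted p = 7.3e-05). Hspd1 was 1.52 to 1.97 times Hspa9 in ciXEN libraries and 0.465 to 0.586 times Hspa9 in MEF libraries. Hspd1 was thus above Hspa9 in all ciXEN libraries and below it in all MEF libraries. Hspd1 was higher and Hspa9 lower in every ciXEN library than in every MEF library, so the separation of their ratio is no further result. Dnajc11, a J protein of cristae, rose by 0.78 (adjusted p = 4.7e-05) and Dnajc15, of the import motor, by 0.55 (adjusted p = 0.0016), while Dnaja3, the J partner of mortalin, rose by 0.43 (adjusted p = 0.0098) with overlapping ranges. Dnaja3 was higher at passage 5 (log2 fold change 0.67, adjusted p = 0.0021) but did not pass at passage 30 (0.19, adjusted p = 0.25). Of 12 other mitochondrial folding and protease genes, 9 rose, none fell and 3 did not pass (42.4% of all tested genes rose and 27.6% fell). Those that rose included Hscb, of iron-sulphur cluster transfer (1.20, adjusted p = 7.2e-06), Timm44, of the import motor (1.18, adjusted p = 1.6e-05), and Grpel1, the nucleotide exchange factor of mortalin (0.76, adjusted p = 2.2e-05).

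Subunits of TRiC, the cytosolic chaperonin that folds actin and tubulin, had no member lower in ciXEN cells. Of 7 tested, 6 were higher in ciXEN cells and 1 did not pass, with a median of 0.44 (42.4% of all tested genes were higher). Their sum was 1135, 1282 and 1128 FPKM at passage 30, with 1134, 1117 and 1131 at passage 5, against 886.6, 869.5 and 797.5 in MEFs. Cct6a, another TRiC subunit, is not among the members here, so the 7 do not make up the whole complex. Cct5 rose most, averaging 237.8 ± 16.6 FPKM at passage 30, with 250.9 ± 25.9 at passage 5, against 162.7 ± 9.18 in MEFs (0.58, SE 0.08, adjusted p = 0.00013). The rises of Cct8, Cct2, Cct3 and Tcp1 were 0.49, 0.47, 0.44 and 0.39 (adjusted p = 0.00043, 0.00028, 0.0012 and 0.00032). Cct7 rose by 0.31 (adjusted p = 0.013), with overlapping ranges, and did not pass without MEF library 3 (0.20, adjusted p = 0.06).

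Cct4 was the exception and the least abundant of the 7 in every library. It had 43.8, 55.0 and 47.1 FPKM at passage 30, with 47.0, 43.1 and 48.4 at passage 5, against 46.6, 47.2 and 43.0 in MEFs (log2 fold change 0.05, SE 0.09, adjusted p = 0.61), a value that was -0.03 with equal library sums. The highest subunit was 5.33 to 6.11 times Cct4 in ciXEN libraries and 4.12 to 4.40 times in MEF libraries. Cct6b, a subunit of testis, stayed below 0.69 FPKM in all libraries and was not tested.

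The remaining J proteins of class C, whose functions differ widely, were mostly higher in ciXEN cells: 13 of 16 rose, 1 fell and 2 did not pass, with a median of 0.55 (42.4% of all tested genes rose and 27.6% fell). Dnajc22 had 2.24, 2.14 and 3.62 FPKM at passage 30 and 2.14, 0.818 and 2.66 at passage 5, and was listed at 0, 0.229 and 0 in MEFs (1.56, SE 0.23, adjusted p = 0.00024). It passed the filter through the ciXEN cells alone, so its call too is a description. Dnajc9, a histone chaperone, had 45.0, 43.7 and 51.3 FPKM at passage 30, with 31.0, 32.5 and 33.8 at passage 5, against 16.2, 14.5 and 15.6 in MEFs (1.28, SE 0.08, adjusted p = 7.3e-07). Dnajc12, a co-chaperone of aromatic amino acid hydroxylases, rose by 1.27 (adjusted p = 4.6e-05), and Dnajc21, which works in ribosome maturation, by 0.93 (adjusted p = 3e-04). Dnajc14 alone fell, by 0.62 (adjusted p = 0.049), and did not pass without MEF library 3 (-0.33, adjusted p = 0.24), the library in which it was highest at 31.2 FPKM. Nor did it pass with the passages of each line averaged (adjusted p = 0.062) or without MEF library 2 (0.061), and it was lost on leaving out any ciXEN library but line 3-3 at passage 5. Dnajc6, the uncoating factor of clathrin vesicles in neurons, was not tested, with up to 0.196 FPKM at passage 30, up to 1.01 at passage 5 and 0 in all MEF libraries.

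Of the other members, Hspb11, a subunit of the ciliary transport complex IFT-B that is no small heat shock protein by function, fell by 1.07 (adjusted p = 0.00026), and Hspbp1, a nucleotide exchange factor of HSP70, rose by 0.74 (adjusted p = 0.00024). Of 27 other cytosolic co-chaperones, 10 rose, 3 fell and 14 did not pass, where 42.4% of all tested genes rose and 27.6% fell. Fkbp4, an HSP90 partner in steroid receptor complexes, had 222.1, 191.6 and 185.0 FPKM at passage 30, with 206.0, 196.3 and 194.4 at passage 5, against 82.0, 68.3 and 55.7 in MEFs (1.54, adjusted p = 2.1e-06). Its relative Fkbp5 rose by 1.08 (adjusted p = 0.0088, and 0.26 with MEF libraries 1 and 3 left out), and Bag1, another exchange factor, by 0.87 (adjusted p = 0.00031).

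The counterparts of 1 family in different compartments moved apart within each library. The cytosolic Hspa8 was 2.70 to 3.58 times the ER Hspa5 in ciXEN libraries and 1.49 to 1.57 times in MEF libraries. Hsp90ab1 was 2.38 to 3.01 times Hsp90b1 in ciXEN libraries and 1.40 to 1.60 times in MEF libraries. These ratios are unaffected by a common scaling of a library. Each cytosolic gene was higher and each ER gene lower in every ciXEN library than in every MEF library. The ratios therefore had to separate between the cell types, and their separation is no further result.

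Each passage was also set against the same 3 MEF libraries, so that the comparisons share their controls. At passage 30, 39 of 77 members were higher and 24 lower, where 64.8% of all tested genes passed (38.2% higher, 26.6% lower). The passage 30 libraries did not overlap the MEFs for 39 of the tested members that were higher and 27 that were lower (41.5% and 28.3% of all tested genes). At passage 5, 33 members were higher and 19 lower, where 66.5% of all tested genes passed (40.7% higher, 25.8% lower). For the passage 5 libraries these counts were 39 higher and 20 lower (45.3% and 28.6% of all tested genes). Dnajc19, which sits on the mitochondrial import motor, was 0.70 higher than in MEFs at passage 30 (adjusted p = 0.00055) and 0.21 higher at passage 5 (adjusted p = 0.14). With MEF libraries 1 and 3 both left out, which leaves a single MEF library whose spread is taken from the other groups, the members lower at passage 30 numbered 15 in place of 24, and over all ciXEN cells 27 were higher and 18 lower. Calls over all genes dropped too, to 5891 in place of 8058 at passage 30 (2437 in place of 3309 lower) and to 6372 in place of 8719 over all ciXEN cells. Hsp90aa1 and Hsp90ab1 were among the calls lost (adjusted p = 0.11 and 0.071).

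Between the passages few members differed: of 77, 2 were higher and 4 lower at passage 30 than at passage 5, and 71 did not pass, where 8.69% of all tested genes passed (3.08% higher, 5.61% lower). The passages did not overlap for 9 members that were higher and 13 that were lower at passage 30 (12.4% and 16.4% of all tested genes). Dnajc9 was higher at passage 30 (values above) by 0.51 (SE 0.09, adjusted p = 0.013). Dnajc19 had 77.9, 85.3 and 88.9 FPKM at passage 30, with 55.3, 67.6 and 55.5 at passage 5, against 59.0, 47.9 and 47.3 in MEFs, and was higher at passage 30 by 0.50 (SE 0.12, adjusted p = 0.032). Both genes were higher at passage 30 in all 3 lines.

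Hspa1a had 2.21, 2.58 and 1.48 FPKM at passage 30, with 6.43, 5.54 and 4.78 at passage 5, against 5.13, 3.54 and 3.75 in MEFs, and fell by 1.10 at passage 30 (SE 0.19, adjusted p = 0.010). Hspa1b fell by 0.83 (SE 0.18, adjusted p = 0.023), and the sum of both genes by 1.04 (adjusted p = 0.012). Dnajb3, a J protein gene without introns that is known from the testis, had 0, 0.643 and 1.46 FPKM at passage 30 against 2.94, 4.75 and 2.66 at passage 5 and fell by 1.45 (adjusted p = 0.023). Dnajc28, listed here with the mitochondrial chaperones, had 1.39, 1.43 and 0.760 FPKM at passage 30 against 3.09, 2.73 and 3.74 at passage 5 and fell by 0.94 (adjusted p = 0.012). All 4 genes were low, and all 4 were lower at passage 30 in each of the 3 lines.

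Libraries of 1 line at both passages form a pair. With the line as a block in a fit of the 6 ciXEN libraries, none of the 6 genes passed (adjusted p = 0.12 to 0.16), 0 members and 0 of all tested genes were called by limma, and 17 of 77 members had an unadjusted p under 0.05, beside 2538 of all 12443 tested genes. In the unblocked fit 21 members did, beside 3105 genes. With library medians made equal, which moved the median of all genes by 0.10, 6 members were higher and 4 lower, with Hspa4, Canx, Hsp90aa1 and Cct7 added. Over all genes that scaling gave 775 higher and 536 lower in place of 383 and 698, and quantile normalisation 459 and 527.

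**Figure D4:**
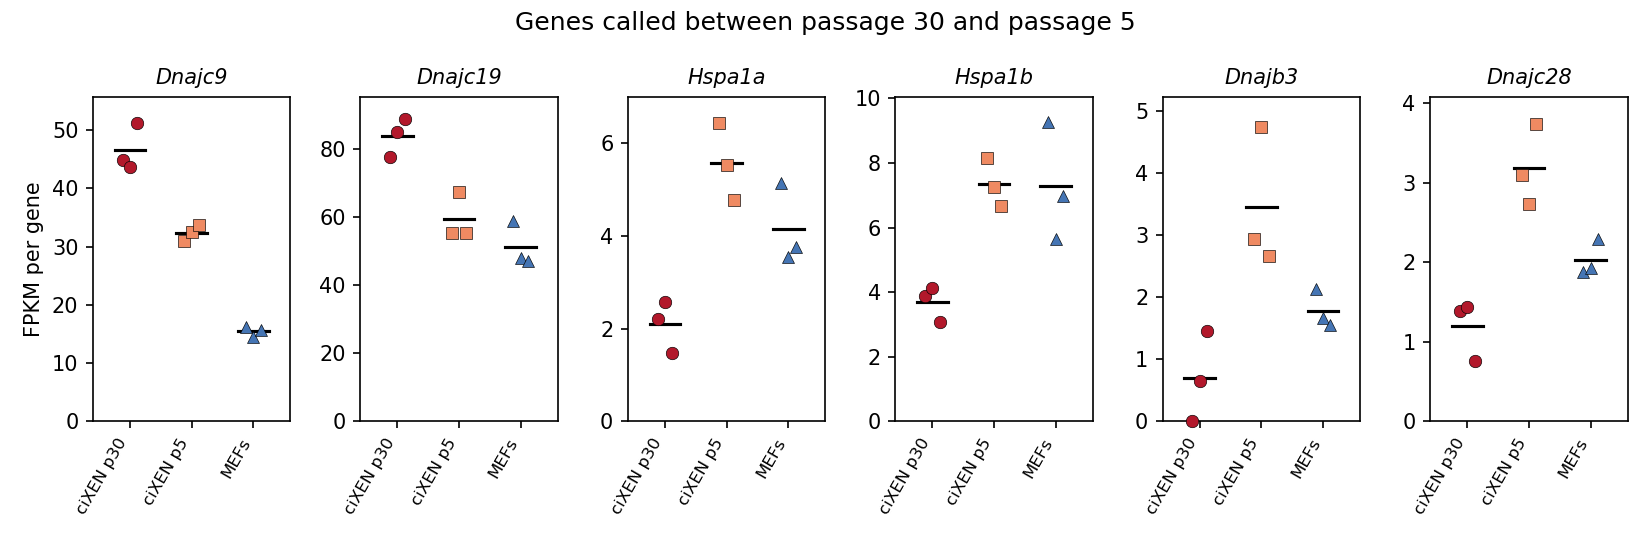
FPKM per gene in each library (points) with the group mean (bar) for the 6 members called between passage 30 and passage 5, with ciXEN p30, ciXEN p5 and MEFs from left to right in each panel. Dnajc9 and Dnajc19 lie higher and Hspa1a, Hspa1b, Dnajb3 and Dnajc28 lower at passage 30, without overlap between the passages.

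The split of some genes between their annotated transcripts differed widely between replicates. Of the 81 members, 36 had 1 listed transcript and 45 had more. In 5 genes of at least 20 FPKM, a transcript's share of the gene ranged over more than 50 percentage points among the 3 libraries of 1 group, in 9 combinations of gene and group. These genes were Hspa8, Hsp90aa1, Hsph1, Dnajb11 and Dnajb12. For Dnajb12 the gene sum moved as well. At passage 5, Dnajb12-201 was at 22.7, 2.82 and 2.87 FPKM in lines 1-1, 2-1 and 3-3. The gene sums there were 35.6, 20.4 and 24.9 FPKM, against 20.3, 17.0 and 16.1 in MEFs. Hspa8-201 had 95.2, 324.3 and 378.7 FPKM in the passage 30 libraries, while the sum over Hspa8 differed between these libraries by a factor of 1.08 at most. In MEFs Hspa8-202 took 75.1% of the gene in library 1 and was listed at 0 in the others. Hsp90aa1-201 was at 0.363 FPKM in line 1-1, 226.6 in line 2-1 and 0.207 in line 3-3 at passage 5. Hsph1-201 was listed at 0 in the passage 30 library of line 3-3 and the passage 5 library of line 2-1, and at 41.0 to 64.9 FPKM in the other ciXEN libraries. All levels above are sums over transcripts.

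**Figure D5:**
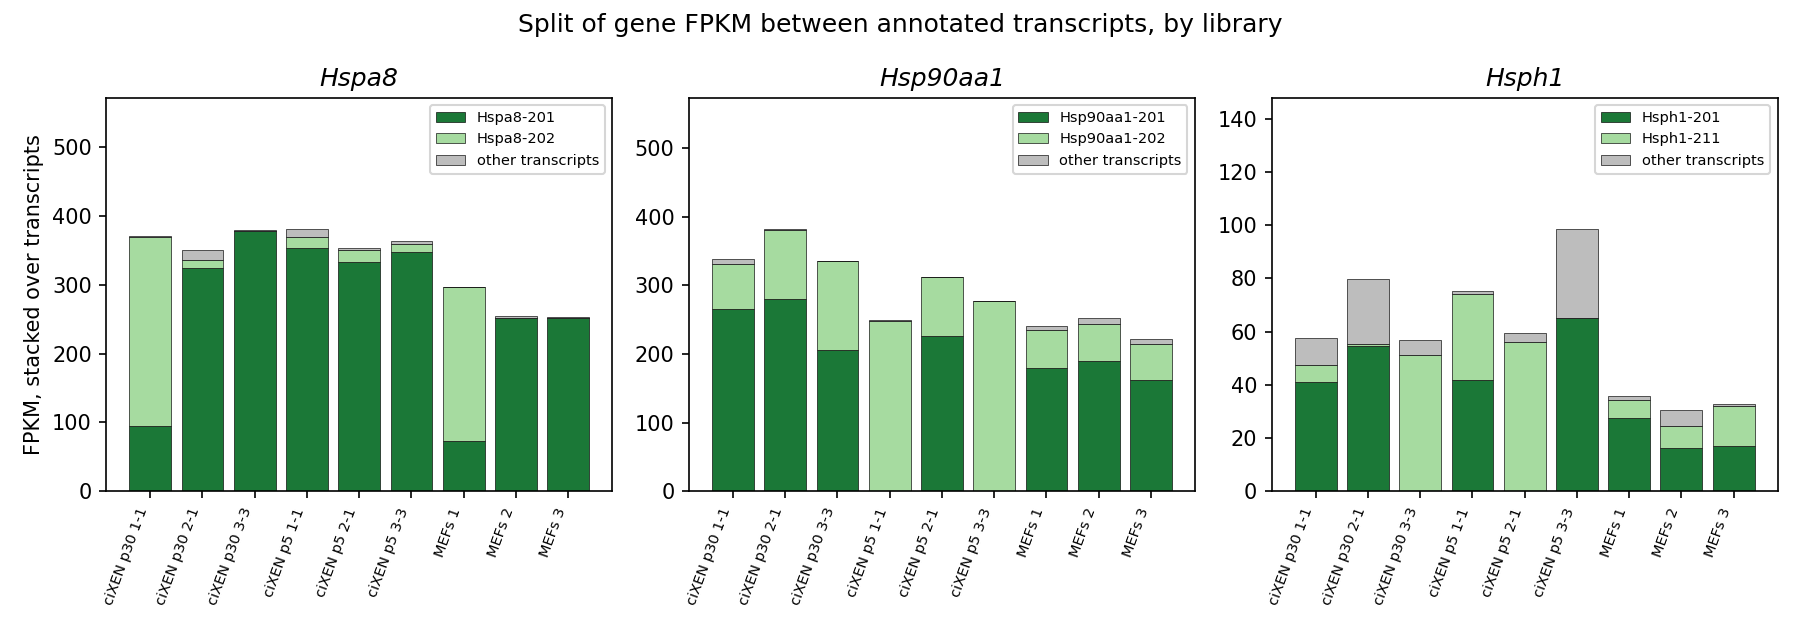
FPKM of Hspa8, Hsp90aa1 and Hsph1 in each of the 9 libraries, stacked over the 2 most abundant annotated transcripts and the rest, with ciXEN p30, ciXEN p5 and MEFs from left to right. The height of a bar is the gene's sum, which differs little between replicates of Hspa8 (a factor of 1.17 in MEFs), while the split between Hspa8-201 and Hspa8-202 changes in MEF library 1 and in line 1-1 at passage 30.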

How the data were processed

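Total RNA of 9 mouse libraries was depleted of ribosomal RNA, sequenced with a stranded kit and summarised by the authors as FPKM for each transcript, the only unit deposited. The submitters' processing notes name cutadapt, HISAT2 2.0.5, STAR 2.5.2b, StringTie and hg19, a human build. Which of these gave the values was not stated. Of 29599 transcripts, 29521 matched GENCODE M21 (GRCm38), 28196 with the same version, and the 78 others held 0.158% of the FPKM. FPKM were summed per gene.

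The 12443 genes averaging 0.5 FPKM or more were tested as log2(FPKM + 1) with limma 3.58.1 (lmFit, eBayes with trend; R 4.3.3), with 6 residual and 3.16 prior degrees of freedom, two-sided, with Benjamini-Hochberg adjustment over all tested genes. All adjusted p-values come from limma. FPKM keep no read counts, so no counting interval was given, and the number of libraries limits the precision.

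Contrasts were the mean of both passages against MEFs, each passage against MEFs, and passage 30 against passage 5. The labels give the line of each ciXEN library, which pairs the passages. The correlations of deviations within lines were -0.00545, 0.0142 and 0.0714. Between MEFs and lines a shared number has no meaning.

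Members and lists were chosen with earlier results of these data known. Genes named were the called members with the largest change in each group (up to 4, and up to 2 against the majority), those called between passages, untested members, a fixed set of main chaperones, and up to 3 called genes of each other list. Names beyond these, such as Dnaja2, Dnajc10 and Hspa13, were added after their values were seen. A further 11 annotated genes that fit the naming rule were not analysed here. Promoters came from RefSeq (GRCm38.p6), which had no entry for 16 members. Alternatives covered the pseudocount, the filter, library scaling, the trend, the line block, pooling, and leaving out libraries. Leaving out MEF libraries 1 and 3 together, pooling the passages and summing Hspa1a with Hspa1b were chosen after seeing the data.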

Additional observations from a re-analysis of the deposited data

Results flagged for a closer look

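In 5 of 53 named members, 1 of the 6 ciXEN libraries stood apart from the other 5 by a gap above Dixon's 95% critical value of 0.625 of the range, which chance gives in about 1 of 20 groups. Hspa9 was at 340.8 FPKM in line 3-3 at passage 30 and at 238.7 to 273.0 in the others, all below the MEFs. Cct2 was at 293.5 FPKM in line 2-1 at passage 30 and at 252.4 to 265.8 in the others. Hspb6 was at 1.57 FPKM in line 3-3 at passage 5 and at 1.11 to 1.24 in the others. Hspb7 was at 0.0326 FPKM in line 2-1 at passage 30 and at 0 in the others, and Hspa12b at 0.073 FPKM in line 1-1 at passage 30 and at 0 to 0.0262 in the others.

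Effects against the same MEF libraries differed between the passages for 6 members, by the limma contrast of passage 30 with passage 5. The log2 differences were 0.51 for Dnajc9, 0.50 for Dnajc19, -0.94 for Dnajc28, -1.45 for Dnajb3, -0.83 for Hspa1b and -1.10 for Hspa1a. Against MEFs, the log2 fold change of Dnajc28 was -0.48 at passage 30 (adjusted p = 0.033) and 0.46 at passage 5 (adjusted p = 0.037), and neither call held with the replicate block, without MEF library 1, without MEF library 2 or without line 3-3 of that passage (adjusted p = 0.054 to 0.12).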

How the results depend on the processing

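Among the genes that the naming rule gave, no called value changed its sign under any alternative that was run. The signs of the other members were not compared. Against MEFs, the members called over all ciXEN cells numbered 34 to 41 higher and 18 to 22 lower when 1 library was left out, with 34 to 36 and 20 to 24 at passage 30, and 31 to 33 and 17 to 19 at passage 5. Calls over all genes were then 7944 to 8676 over all ciXEN cells, against 8719 with every library. They were 7318 to 7754 at passage 30, against 8058, and 7556 to 7726 at passage 5, against 8273. With the passages of each line averaged, 61 of 63 member calls were kept and 8800 genes were called. With MEF libraries 1 and 3 both left out, 15 members were lower at passage 30. Between the passages the calls were few and depended on the fit. Members higher at passage 30 numbered 6 with equal library medians, 1 without the variance trend, 1 with only these groups in the fit, 1 with the replicate block in all 9 libraries and 0 with line as the block in the 6 ciXEN libraries alone. Over all genes these settings called 1311, 1026, 431, 813 and 0, against 1081. Members lower numbered 1 with only these groups and 0 with the line block in the 6 ciXEN libraries. Leaving out 1 library gave 0 to 3 higher and 2 to 5 lower members, with 443 to 988 calls over all genes. Without line 1-1 at passage 5 the calls of Dnajc9, Dnajc19, Dnajb3 and Hspa1b were lost. The cause was not tested. The block in all 9 libraries gave 40 higher and 22 lower members over all ciXEN cells, with 8572 calls over all genes. A fit of only the compared groups gives nothing new for ciXEN cells against MEFs. Equal library medians moved the median of all genes by 0.104 between the passages and by -0.111 between passage 5 and MEFs. Depth is unknown, so values near 0 cannot be given a limit.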
